A study of Mus musculus with 6 samples.

Results

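The 10 genes described here make fatty acids from carbohydrate or switch that pathway on: the transcription factor genes Mlxipl and Srebf1, the lipogenic protein gene Thrsp, the enzyme genes Acly, Acaca, Acacb, Fasn and Me1, and the desaturase genes Scd1 and Scd2. They were measured in brown fat, which burns lipid to make heat, of wild type and Cd36 null mice. Every array probe annotated with one of these symbols was taken, 14 probes in all, of which 11 probes for 9 genes were bright enough to test, among 17912 tested probes for 10150 genes. The Cd36 product helps cells import long-chain fatty acids. Both groups were male mice of 3 months, with the genetic background given as C57BL6J, kept overnight in clean cages without food. Each genotype had 3 Illumina arrays of total RNA, numbered 1 to 3. The sources used here do not say how the null allele was made or whether each array stands for 1 animal, so p-values reflect the spread among these arrays, part of which may be technical.

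De novo lipogenesis turns citrate exported from mitochondria into palmitate: ATP citrate lyase releases acetyl-CoA, acetyl-CoA carboxylase makes malonyl-CoA from it, fatty acid synthase builds the chain with NADPH, and stearoyl-CoA desaturases add a double bond. ChREBP, the product of Mlxipl, responds to glucose metabolites, and SREBP-1, the product of Srebf1, responds to insulin; both switch on genes of these enzymes. Brown fat is known to run the pathway together with fatty acid oxidation, and fasting is known to lower it in fat and liver.

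The 250 bases before the start of 4 of the genes are shown because these genes had the lowest p-values of the 10 by their brightest probes, 2 of them past the threshold. The sequences are those of RefSeq on build GRCm38.p6 and run 5′ to 3′ towards the start, with capitals marking CACGTG and CCAAT read on either strand. Mlxipl has 2 starts in that table and Srebf1 has 3, and for each the start with the most of the searched motifs is shown.
Mlxipl, chr5:135089640-135089889, plus strand: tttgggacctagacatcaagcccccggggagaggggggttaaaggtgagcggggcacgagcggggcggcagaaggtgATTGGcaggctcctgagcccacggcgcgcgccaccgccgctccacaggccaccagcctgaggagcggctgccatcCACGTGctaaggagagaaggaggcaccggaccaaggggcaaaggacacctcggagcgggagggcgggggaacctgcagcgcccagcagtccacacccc
Srebf1, chr11:60210472-60210721, minus strand: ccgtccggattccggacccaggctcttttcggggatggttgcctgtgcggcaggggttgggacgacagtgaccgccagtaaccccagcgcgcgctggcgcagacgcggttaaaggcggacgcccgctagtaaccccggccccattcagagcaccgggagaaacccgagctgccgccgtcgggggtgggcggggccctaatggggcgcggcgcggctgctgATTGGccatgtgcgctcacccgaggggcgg
Fasn, chr11:120824548-120824797, minus strand: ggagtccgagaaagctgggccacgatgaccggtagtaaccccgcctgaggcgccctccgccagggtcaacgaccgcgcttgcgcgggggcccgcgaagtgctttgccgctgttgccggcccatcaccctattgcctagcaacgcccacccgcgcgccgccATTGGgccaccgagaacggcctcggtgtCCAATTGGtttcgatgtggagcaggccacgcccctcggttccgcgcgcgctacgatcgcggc
Thrsp, chr7:97417551-97417800, minus strand: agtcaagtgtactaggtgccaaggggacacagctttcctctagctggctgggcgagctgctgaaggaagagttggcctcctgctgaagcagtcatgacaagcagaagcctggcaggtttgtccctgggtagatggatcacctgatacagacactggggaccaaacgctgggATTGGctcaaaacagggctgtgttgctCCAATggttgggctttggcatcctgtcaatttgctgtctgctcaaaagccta

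CACGTG is the E-box that ChREBP binds in pairs with its partner Mlx, and CCAAT is the element bound by NF-Y, a partner of SREBP. The table held 12 starts for 8 of the 10 genes. CACGTG was found before 1 of the 12, the first start of Mlxipl, at position -98, against 6.02% of all 32851 entries. CCAAT was found before 7 of the 12, against 33.8% of all entries. In Fasn it occurred 3 times, at -90, -62 and -59, and the last 2 matches overlap on opposite strands. In Thrsp it occurred at -79 and -52, in the Mlxipl start shown at -173 and in the Srebf1 start shown at -30. The Sp1 element GGGCGG was found before 5 of the 12, against 32.7%. It lay before the Mlxipl start shown at -188 and -38 and before the Srebf1 start shown at -65 and -6. The sterol element TCACNCCAC was found before 1, the second start of Mlxipl, against 1.05%. The paired E-box of carbohydrate response elements was found before 0 of the 12, against 0.387%. These matches are letters in a window and do not show binding.

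Transcripts of Mlxipl and Srebf1 were lower in Cd36 null brown fat, and the differences of the other 7 tested genes did not pass the test, Fasn among them at a size like that of Srebf1. Of the 11 tested probes, 2 fell, 0 rose and 9 did not pass at an adjusted p under 0.05 in limma. Of all tested probes 2.23% fell and 5.01% rose, 7.24% in all. The genotypes did not overlap for 8 of the 11, each time with null lower, against 13.8% of all tested probes (27.5% in either direction). Taking the brightest probe of each gene, 8 of 9 genes had the lower mean in null tissue, against 53.9% of all tested genes, and their median difference was -0.56 log2, against -0.03 over all tested genes. At an unadjusted p under 0.05, 6 of the 11 probes differed, against 21.4% of all tested probes. The count of 2 fell to 1 without any one of wild type replicates 1 to 3 or null replicates 1 and 2, and rose to 4 without null replicate 3. Since RNA was taken from whole tissue, fewer cells of a type and less RNA per cell cannot be told apart.

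**Figure D1:**
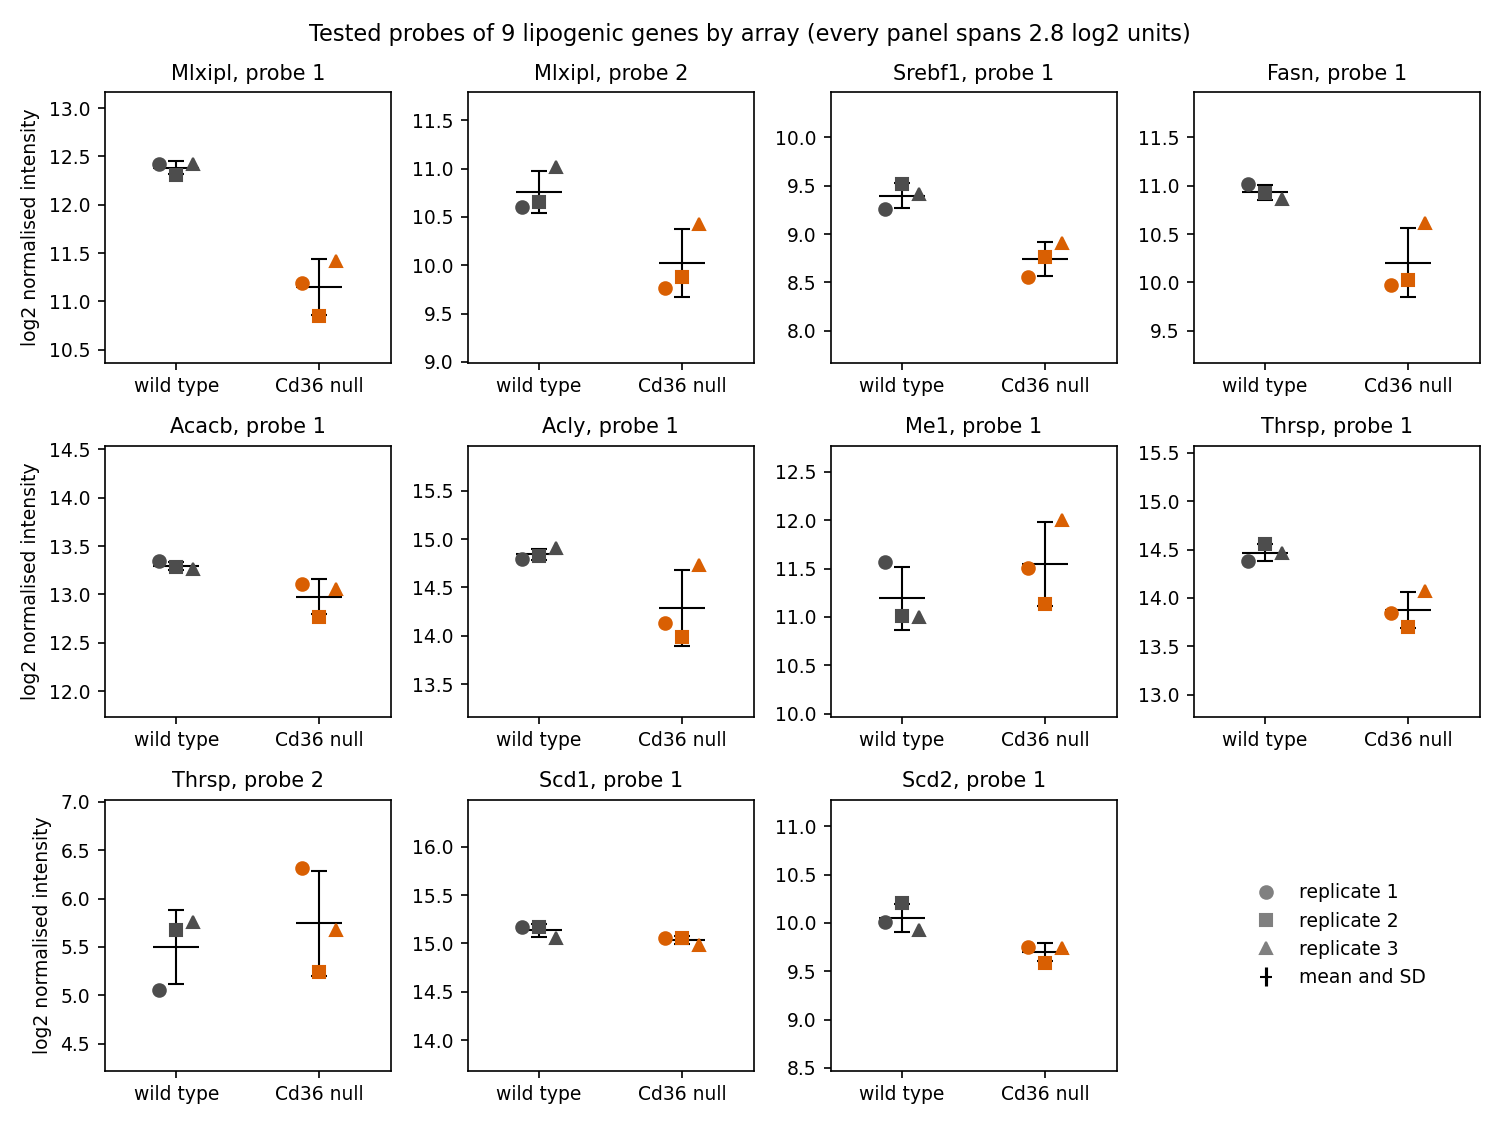
Normalised log2 intensity of the 11 tested probes of 9 genes on 3 wild type (grey) and 3 Cd36 null arrays (orange), with the mean and SD of each genotype as black lines and the replicate as the marker shape. The genotypes are apart with null lower in both Mlxipl probes, Srebf1, Fasn, Acacb, Acly, Scd2 and Thrsp probe 1, and overlap in Me1 and Thrsp probe 2 and touch in Scd1.

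Mlxipl had the largest difference of the 9 tested genes. Its brighter probe stood at 12.42, 12.30 and 12.42 log2 on wild type replicates 1 to 3 and at 11.19, 10.85 and 11.42 on null replicates 1 to 3. Every null array lay at least 0.88 log2 below every wild type array. The mean fell from 12.38 ± 0.07 to 11.15 ± 0.29 (SD, n = 3), a difference of -1.23 ± 0.18 log2 (SE, adjusted p = 0.00511 in limma), which leaves 42.7% of the wild type level. This call held under all 16 alternatives run, with differences between -1.36 and -1.08 and adjusted p between 1.29e-04 and 0.0275. The second probe stood at 10.61, 10.66 and 11.01 in wild type and at 9.77, 9.88 and 10.43 in null tissue. The groups were again apart, with null replicate 3 nearest to wild type. Its difference of -0.73 ± 0.22 (SE, adjusted p = 0.0790 in limma) did not pass. It passed without null replicate 3 (adjusted p = 0.0358) and with the authors' log2 values (adjusted p = 0.0451), within a range of 0.0200 to 0.220 over 16 alternatives. The sources used here do not tell which Mlxipl transcript each probe reads.

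Srebf1 fell by less, and its call depended on the settings. Its tested probe stood at 9.26, 9.52 and 9.42 log2 on wild type replicates 1 to 3 and at 8.56, 8.77 and 8.90 on null replicates 1 to 3, so the genotypes did not overlap. The mean went from 9.40 ± 0.13 to 8.74 ± 0.18 (SD, n = 3), a difference of -0.66 ± 0.17 (SE, adjusted p = 0.0480 in limma), or 63.5% of wild type. The call ended when any of the 6 arrays was left out, with adjusted p up to 0.176, with the replicate block (adjusted p = 0.0723), with median scaling (0.0991) and without a filter (0.0564). The difference stayed between -0.74 and -0.55 over the 16 alternatives. A second Srebf1 probe was at background on all 6 arrays, with raw intensities between 86.6 and 110, and was not tested. The arrays do not separate the SREBP-1a and SREBP-1c forms.

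Thrsp, which encodes a small protein of fat-making tissues, was bright on every array by 1 of its 2 probes. That probe stood at 14.38, 14.56 and 14.47 log2 in wild type and at 13.84, 13.70 and 14.07 in null tissue, with no overlap. The difference was -0.59 ± 0.16 (SE, n = 3, adjusted p = 0.0654 in limma; 95% interval -0.97 to -0.22), and it did not pass over all probes. With the authors' log2 values the difference was also -0.59 and passed (adjusted p = 0.0261, within 0.00522 to 0.214 over 16 alternatives). The other probe was dim, at 5.06 to 5.76 in wild type and 5.24 to 6.32 in null tissue. Its difference was 0.25 ± 0.29 (SE, adjusted p = 0.690 in limma), with overlapping groups, and it turned to -0.04 without null replicate 1.

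Among the enzymes, Acly, ATP citrate lyase, stood at 14.80, 14.82 and 14.90 log2 on wild type replicates 1 to 3 and at 14.14, 13.99 and 14.73 on null replicates 1 to 3. Null replicate 3 lay just below the wild type arrays and the other null arrays well below them. The difference was -0.56 ± 0.21 (SE, adjusted p = 0.163 in limma; 95% interval -1.03 to -0.08). Without null replicate 3 it was -0.78 (adjusted p = 0.0459, within 0.0459 to 0.410 over 16 alternatives).

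The acetyl-CoA carboxylases were seen through Acacb, the form at the mitochondrial outer membrane whose malonyl-CoA restrains fatty acid import. Its bright probe stood at 13.35, 13.28 and 13.26 log2 in wild type and at 13.11, 12.77 and 13.05 in null tissue. The groups did not overlap, but the difference of -0.32 ± 0.16 (SE, adjusted p = 0.297 in limma; 95% interval -0.68 to 0.04) did not pass. A second Acacb probe was detected on 2 of 3 wild type and 0 of 3 null arrays and was too dim to test. For Acaca, the cytosolic carboxylase that feeds fatty acid synthase, the only probe was detected on 0 of 6 arrays, with raw intensities between 83.2 and 105, so its transcript was not measured.

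Fasn, fatty acid synthase, stood at 11.01, 10.92 and 10.86 log2 on wild type replicates 1 to 3 and at 9.97, 10.03 and 10.62 on null replicates 1 to 3. The groups did not overlap, and null replicate 3 was again the nearest to wild type. The difference was -0.73 ± 0.20 (SE, adjusted p = 0.0653 in limma; 95% interval -1.18 to -0.27), or 60.4% of wild type. Without null replicate 3 the difference was -0.93 and passed (adjusted p = 0.0228), as it did with the authors' log2 values (-0.71, adjusted p = 0.0337), within a range of 0.0145 to 0.200 over 16 alternatives.

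Me1, the malic enzyme that supplies NADPH, was the only tested gene of the 9 with a higher mean in null tissue. It stood at 11.57, 11.01 and 11 log2 in wild type and at 11.50, 11.14 and 12 in null tissue, and the groups overlapped. Wild type replicate 1 was the high array of its group and null replicate 3 that of the other. The difference was 0.35 ± 0.25 (SE, adjusted p = 0.479 in limma; 95% interval -0.22 to 0.93). It was 0.13 without null replicate 3, 0.56 without null replicate 2 and 0.54 without wild type replicate 1, and passed in none of the 16 alternatives.

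The desaturase Scd1 stood at 15.17, 15.17 and 15.06 log2 in wild type and at 15.05, 15.06 and 14.99 in null tissue, and the groups met at 15.06. Its difference was -0.10 ± 0.15 (SE, adjusted p = 0.755 in limma; 95% interval -0.43 to 0.23). Its raw intensities, 29939 to 39255, lay near the highest on each array, 34975 to 42250, and Acly was also near that end on wild type arrays. Scd2, a related desaturase, stood at 10.01, 10.21 and 9.92 in wild type and at 9.76, 9.59 and 9.74 in null tissue, without overlap. Its difference was -0.35 ± 0.16 (SE, adjusted p = 0.240 in limma; 95% interval -0.71 to 0.01).

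**Figure D2:**
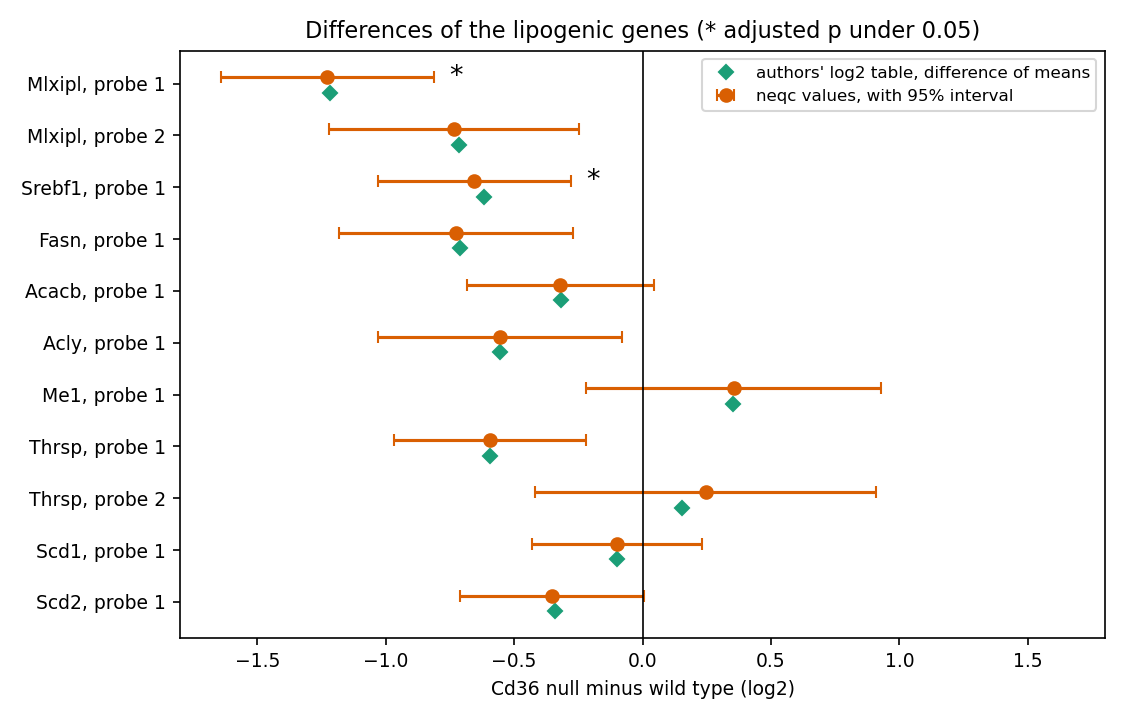
Difference between Cd36 null and wild type (null minus wild type, log2) for the 11 tested probes, with 95% intervals from the limma fit (orange circles), beside the difference of means in the authors' log2 table (green diamonds). Mlxipl probe 1 at -1.23 and Srebf1 at -0.66 carry the star for an adjusted p under 0.05, and both sources give each probe the same direction.

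In the authors' deposited log2 table, the limma fit lowered 5 of the 11 probes past the threshold: both Mlxipl probes, Srebf1, Fasn and the bright Thrsp probe. Of all 17912 probes, 2.85% fell in that table. The sizes were close to those above, between -1.22 for the brighter Mlxipl probe and 0.35 for Me1. That table adds a larger offset before the log, which also changes the spread of dim probes.

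The null arrays were not alike. Among the 9 genes, null replicate 3 was the highest of the null arrays for 6, against 38.1% of all tested genes, and null replicate 2 was the lowest for 6, against 29.8%. As a median over the 9 genes, null replicates 1 to 3 stood at -0.62, -0.63 and -0.30 log2 from the wild type mean, and wild type replicates 1 to 3 at 0.04, -0.01 and -0.03. The median of the gene differences was -0.69 without null replicate 3 and -0.41 without null replicate 2.

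Genes that ChREBP and SREBP-1c are known to switch on, outside the 10, moved in both directions. Of 8 measured ChREBP targets, 2 fell, 1 rose and 5 did not pass (median -0.16 log2), against 2.11% of all tested genes that fell and 5.73% that rose. Pnpla3, a lipid droplet protein, stood at 11.73, 11.61 and 11.997 log2 in wild type and at 10.24, 9.86 and 10.47 in null tissue, far apart. It fell by 1.59 log2 (SE 0.20, adjusted p = 0.00236 in limma). Gpd1, which makes glycerol phosphate, fell by 0.73 (SE 0.17, adjusted p = 0.0340), a call that ended without any array but null replicate 3. Fgf21, a fasting hormone, rose by 1.16 (SE 0.24, adjusted p = 0.0225), and passed in 2 of the 6 fits with an array left out; the rise was 0.68 without background correction. Tkt, transketolase, fell by 0.80 (SE 0.19, adjusted p = 0.0393) on the third of its tested probes, while its brightest differed by -0.36 without passing. That call held without wild type replicate 1 or null replicate 3 and ended without any of the other 4 arrays (adjusted p up to 0.148), with median scaling (0.0824) and without a filter (0.0812).

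Of 9 measured SREBP-1c targets, 1 fell, 1 rose and 7 did not pass (median -0.21 log2). The one that fell was Pnpla3, which is in both lists. Fads1, a desaturase of polyunsaturated fatty acids, stood at 9.76, 9.58 and 9.71 in wild type and at 10.83, 10.50 and 10.86 in null tissue, opposite in direction to Srebf1. It rose by 1.04 ± 0.17 (SE, adjusted p = 0.00715 in limma). Lpin1, a phosphatidate phosphatase, fell by 0.58 (SE 0.15, adjusted p = 0.0484) on the dimmer of its tested probes, and its brighter one differed by -0.52 without passing. The call ended when any of the 6 arrays was left out (adjusted p 0.0820 to 0.150) and with median scaling (0.0624).

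Of 19 measured partners and upstream regulators of both factors, 0 passed by their brightest probe in limma, and 2 of the 19 had an unadjusted p under 0.05, against 22.6% of all tested genes (median -0.09). Mbtps1, the protease that first cuts SREBP precursors, fell by 0.70 on the dimmest of its 3 tested probes (SE 0.17, adjusted p = 0.0377) and differed by -0.26 on the brightest. Leaving out each of the arrays ended that call (adjusted p up to 0.149), except for wild type replicate 1, and so did median scaling (0.0925). The 2 with an unadjusted p under 0.05, Ppargc1b and Irs2, are named after their values were seen. Ppargc1b differed by -0.79 (adjusted p = 0.057 in limma) and Irs2 by 0.74 (adjusted p = 0.184), both without overlap of the genotypes. Mlx, the partner of ChREBP, named here after its values were seen, differed by -0.38 ± 0.19 (SE, adjusted p = 0.300), with overlap, and by -0.11 on its second probe. Of 15 measured genes of glucose entry, pyruvate and citrate supply, 0 passed in limma and 6 had an unadjusted p under 0.05 (median -0.20). Slc2a4, the insulin-responsive glucose transporter GLUT4, stood at 10.87, 11.28 and 11.40 in wild type and at 10.62, 10.35 and 10.51 in null tissue. The groups did not overlap, but the difference of -0.69 ± 0.19 (SE, adjusted p = 0.0619) did not pass. Slc25a1, the mitochondrial citrate carrier that supplies ATP citrate lyase, differed by -0.53 ± 0.18 (adjusted p = 0.118), with its second probe at -0.54.

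None of 5 measured genes listed as NADPH sources other than Me1 passed in limma, and 1, Me2, had an unadjusted p under 0.05 (median 0.08). The arrays do not show which cofactor these enzymes use, so the list is no measure of NADPH supply. The smallest p belonged to Me2 and H6pd, at 0.42 and -0.17 log2. None of 4 measured genes of mitochondrial fatty acid synthesis passed either, by their brightest probe, and 0 had an unadjusted p under 0.05 (median 0.05), with Mcat at -0.27 and Mecr at 0.14. Of 10 measured genes of elongation and further desaturation, 2 rose, 0 fell and 8 did not pass (median 0.15). Besides Fads1, Elovl3, an elongase induced by cold, rose from 7.59 ± 0.21 to 10.12 ± 0.29 log2 (SD, n = 3, adjusted p = 3.06e-04 in limma). A second probe of Hsd17b12, an enzyme of elongation, fell by 1.31 (SE 0.26, adjusted p = 0.0195), while its brightest differed by 0.05. The difference was -0.66 without background correction. The call ended without a filter (adjusted p = 0.0812) and without wild type replicates 1 or 2 or null replicate 2 (0.0693 to 0.0830).

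Of 12 measured genes that control acetyl-CoA carboxylase or use malonyl-CoA, 2 fell, 1 rose and 9 did not pass (median -0.06). Both that fell encode regulatory subunits of AMPK, the kinase that phosphorylates and inhibits the carboxylases. Prkag2 went from 9.07 ± 0.32 to 4.89 ± 0.10 log2 (SD, n = 3, adjusted p = 4.05e-05 in limma) by its only probe, near background in null tissue (1 of 3 arrays detected), where the size is uncertain (-2.44 without background correction). Prkag2 lies on chromosome 5 with Cd36, as do Mlxipl and Acacb. How far each of them lies from Cd36 was not worked out, and an effect of the shared chromosome was not tested. Prkab1 fell by 0.83 (SE 0.21, adjusted p = 0.0478), and passed in 1 of the 6 fits with an array left out, the one without null replicate 3. Trib3, a pseudokinase reported to promote degradation of acetyl-CoA carboxylase in mice, stood at 8.83, 8.82 and 8.58 in wild type and at 11.49, 11.85 and 11.55 in null tissue. It rose by 2.88 ± 0.17 (SE, adjusted p = 7.66e-05), with its other probes also past the threshold, the smaller difference being 2.15.

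**Figure D3:**
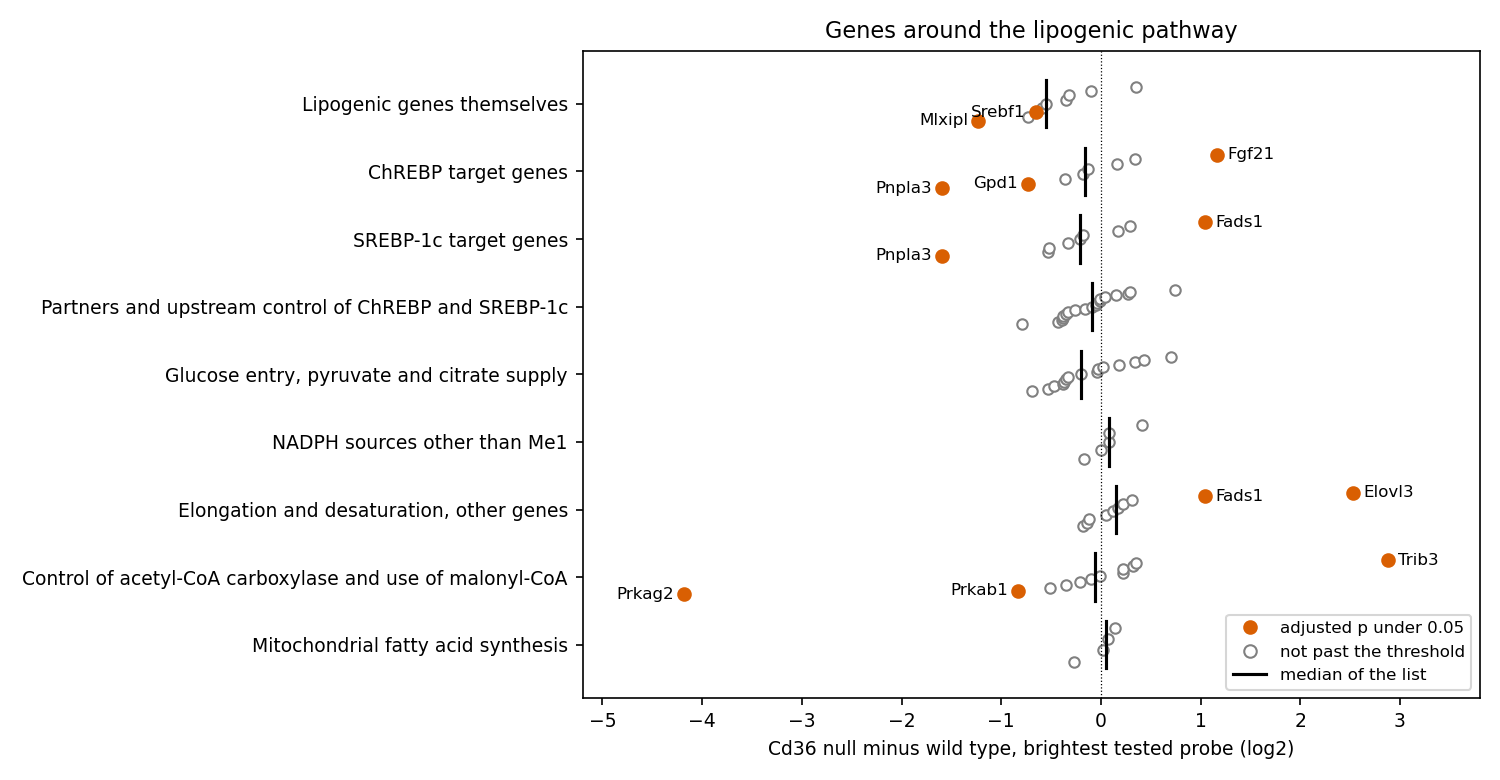
Cd36 null minus wild type (log2) for the brightest tested probe of each gene in the lipogenic set and in 8 lists around it, with filled circles for an adjusted p under 0.05 and a black bar at each list's median. The lipogenic genes have the lowest median, -0.56, and the other medians lie between -0.21 and 0.15. The genes and lists were chosen with earlier results of these data known, and the medians were not compared by a test.

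Fat cell markers went both ways. Of 8 measured adipocyte markers, 0 passed by their brightest probe in limma and 3 had an unadjusted p under 0.05 (median 0.03). Adiponectin, Adipoq, differed by 0.10 and the lipid droplet coat gene Plin1 by 0.12. Pparg, the factor that specifies fat cells, stood at 12.28, 12.36 and 12.47 in wild type and at 11.53, 11.60 and 12.09 in null tissue by its brightest probe. It differed by -0.64 ± 0.19 (SE, adjusted p = 0.0828), and its other probes fell by 0.74 and by 1.58 (adjusted p = 0.0485 and 0.00202). The others with an unadjusted p under 0.05, named after their values were seen, were Cebpa, a partner of Pparg, at -0.62 (adjusted p = 0.101), and the lipid droplet gene Cidec at 0.61 (adjusted p = 0.0531). Second probes of Plin1 and of the lipase gene Lipe differed by -0.56 and -0.45 without passing. Of 8 brown adipocyte markers, 1 fell, 0 rose and 7 did not pass (median -0.07). The one that fell was Prdm16, a brown fat transcription factor named after its values were seen, at -0.71 (adjusted p = 0.0249). Ucp1, Cidea and Cox7a1 were detected on all 6 arrays and differed by -0.12, 0.13 and -0.07, at levels of 14.48 to 14.92 log2, near the highest value of 15.24 on every array. Ppargc1a, a coactivator of brown fat genes also named after its values were seen, differed by -0.69 (adjusted p = 0.0990), with no overlap. Of 3 measured white adipocyte markers, 1 fell and 1 rose: Lep, the leptin gene, fell by 1.89, and Agt, the angiotensinogen gene and also named after its values were seen, rose (adjusted p = 0.0055). Agt was near background in wild type, detected on 2 of 3 arrays, so its size is uncertain: 1.87 log2 here and 1.17 in the authors' deposited table. The single Cd36 probe was at background, detected on 1 of 3 wild type and 0 of 3 null arrays, and could not check the genotypes.

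Macrophage, fibroblast and lymphocyte markers had higher means on the null arrays by their brightest probes, though not all passed. Of 8 measured macrophage markers, 6 rose and 0 fell (median 1.35), and of 6 fibroblast markers 5 rose and 0 fell (median 1.30). Their list levels ran from -0.21 to 0.30 and from -0.06 to 0.07 log2 on the wild type arrays, and from 1.25 to 1.52 and from 1.20 to 1.33 on the null arrays. Adgre1, Csf1r and Lyz2 rose by 1.48, 0.97 and 2.05, and Col1a1, Col1a2 and Col3a1 by 1.76, 1.47 and 1.28. Lymphocyte markers rose in 3 of 5 (median 0.96), among them Cd3e and Cd2, while Cd3g did not pass. The lymphocyte list level ran from -0.13 to 0.12 in wild type and from 0.57 to 1.23 in null tissue. Cd2 and Cd3g were detected on 0 of 3 wild type and 3 of 3 null arrays, and Cd3e on 2 of 3 and 3 of 3. Cd2 and Cd3g were thus tested only because of the null arrays, and their sizes are uncertain. None of 4 measured endothelial markers, Pecam1 and Cdh5 among them, passed in limma, and 1 had an unadjusted p under 0.05 (median 0.09). The part of other cells' RNA in the lower lipogenic transcripts was not tested.

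Liver also makes fatty acids, and transcripts listed as hepatocyte markers stood unevenly. Of 5 measured hepatocyte markers, 4 rose (median 3.66), with Ttr at 4.17 and Apoa1 at 3.73. Their list level was -0.53, -0.34 and 0.90 log2 on wild type replicates 1 to 3 and 5.75, 2.31 and 2.73 on null replicates 1 to 3. Ahsg, whose difference is the median of 3.66, and Serpina1a are named after their values were seen. Both were detected on 3 of 3 null arrays, but on 1 of 3 and 0 of 3 wild type arrays. The null arrays alone sufficed to bring both into the test, so their sizes and the list level are uncertain. The other 5 of the 10 markers were not tested. Of these, Alb was detected on 0 of 6 arrays, as were Tat and Fgb, named after their values were seen. Cps1 and Apoh, also named after their values were seen, were detected on 0 of 3 wild type and 2 of 3 null arrays. Whether liver RNA was present was not tested. Null replicate 1, with the highest hepatocyte level, and null replicate 2 had lipogenic medians of -0.62 and -0.63. Single genes differed between these arrays in both directions, such as Mlxipl at -1.19 and -1.53 and Srebf1 at -0.84 and -0.63. A link between hepatocyte and lipogenic levels was not tested. None of 9 skeletal muscle markers passed in limma, and 0 had an unadjusted p under 0.05. Their list level was -0.06, -0.05 and 0.01 in wild type and 0.55, 0.09 and -1.97 in null tissue. Null replicate 3 was thus the lowest array for muscle transcripts and the null array nearest to wild type for lipogenic ones, and a link between them was not tested.

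**Figure D4:**
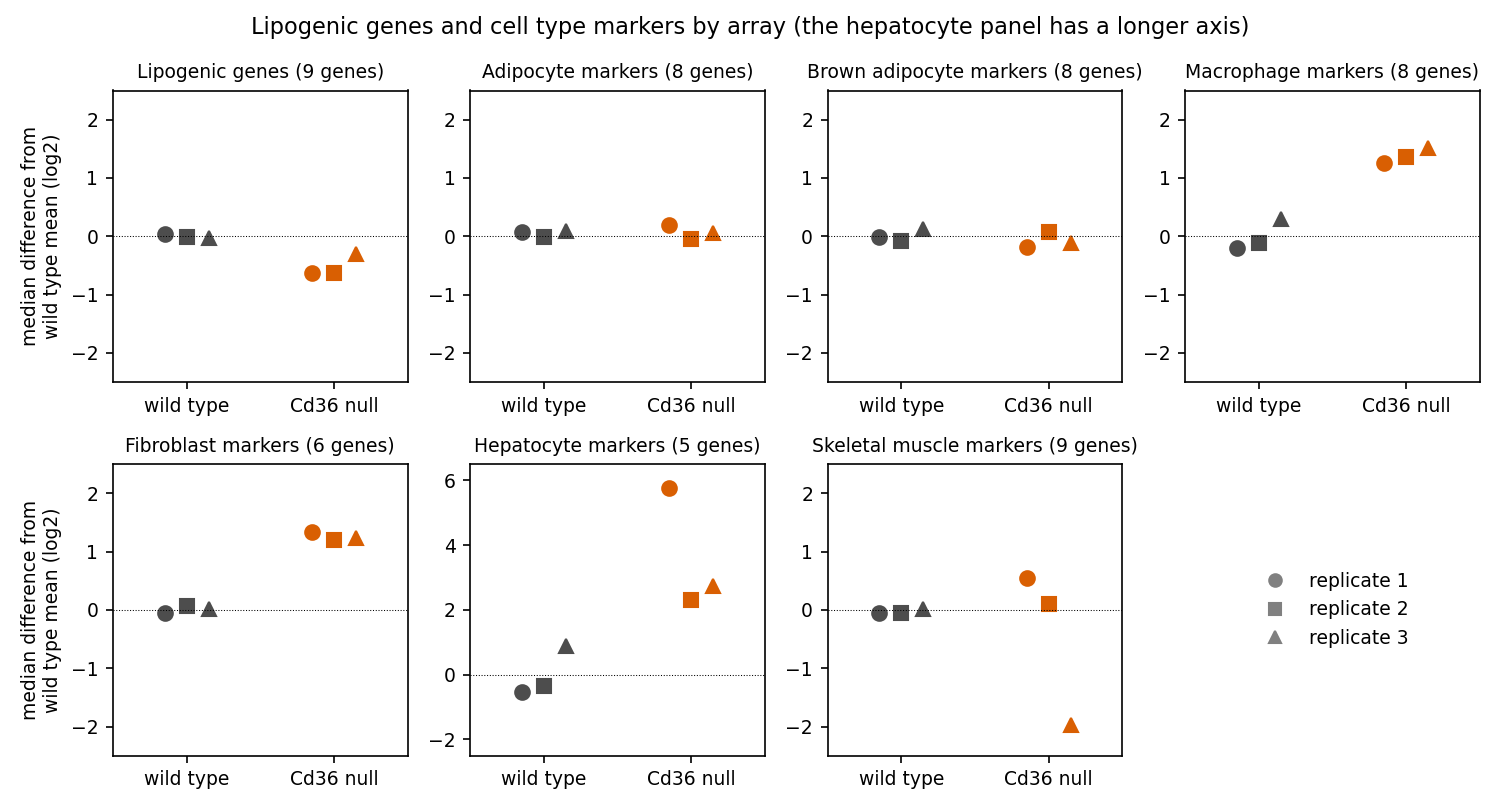
Median difference from the wild type mean (log2) on each of the 6 arrays for the lipogenic genes and for markers of 6 cell types, with 1 marker shape per replicate. The null arrays lie at -0.62, -0.63 and -0.30 for lipogenic genes, above every wild type array for macrophage, fibroblast and hepatocyte markers, and at -1.97 for muscle markers on replicate 3.

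Null arrays had more detected probes, 18139 to 19199 each, than wild type arrays, 16929 to 17035 each. In the main fit 897 probes rose and 399 fell in null tissue. The counts were 653 and 405 when only probes detected on all 6 arrays were tested. They were 1359 and 228 with median scaling, and 1430 and 958 with array weights. The total of 1296 became 589 when wild type replicate 2 was left out, 704 when it was wild type replicate 1 and 724 when it was null replicate 2. Over all tested probes the median was -0.05 log2 as reported and 0.08 under median scaling, where the median of the 9 lipogenic genes was -0.55. Precision is limited by having 3 arrays a group.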

How the data were processed

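The deposited scanner table holds, per the file headers, an intensity on a linear scale and a detection p-value per probe on every array, before any normalisation. The authors' deposited value table is in log2 units. The submitters' processing notes name limma with no version, and other steps were not given in the sources used here. The table lay within 0.024 log2 of neqc run with an offset of 50. Its columns and those of the scanner table were matched to samples by accession.

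Intensities were normalised with neqc (background inferred from detection p-values, offset of 16, quantiles) in limma 3.58.1 under R 4.3.3. Those detected (detection p under 0.05) on 3 or more arrays were tested with lmFit and eBayes, adjusted by Benjamini-Hochberg over all 17912, with a threshold of 0.05. This limma fit gives every adjusted p. Differences are Cd36 null minus wild type, and the offset shrinks those of dim probes. Of 45267 probes, 34875 had 1 symbol in the platform annotation, 18 several and 10374 none, and 34808 matched RefSeq. A gene is counted by its brightest tested probe.

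The 10 genes, the 8 pathway lists and the 9 marker lists were chosen with earlier results of these data known. Named are the 10 genes, Cd36, Ucp1, pathway genes with a probe past the threshold (otherwise 2 of smallest p per list), and up to 3 markers per list. Exceptions are marked. Same-numbered arrays did not deviate together (correlations 0.08, -0.02 and 0.03), so no pairing was assumed. Alternatives were other offsets, background, scaling, filters and variance models, the authors' values, a replicate block and each array left out.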

Additional observations from a re-analysis of the deposited data

How the results depend on the processing

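The brighter Mlxipl probe passed under all 16 alternatives. The number of lipogenic probes past the threshold, 2 as reported, was 5 with an offset of 50, with the authors' values, without background correction and with array weights, 6 with trend and robust estimation, and 1 with median scaling, without a filter and with the replicate block. With 1 array left out it ranged from 1 to 4. Every such probe was lower in null tissue. The count of pathway genes, 8 as reported, was 14 without background correction and 13 with trend and robust estimation or array weights, and ranged from 5 to 8 with an array left out. All changed probes numbered 1296, 2388 with array weights and 868 with the replicate block, and 589 to 1043 with an array left out. The median over the lipogenic genes ranged from -0.69 to -0.41 with an array left out and lay between -0.57 and -0.55 otherwise. With the other filters, trend and robust estimation and the replicate block it stayed at -0.56, because these leave each probe's difference unchanged. Thrsp probe 2 ranged from -0.041 (without null replicate 1) to 0.50 with an array left out. Over the 11 lipogenic probes, 146 values under alternatives kept direction and side of the threshold, 19 newly passed, 9 no longer passed and 1 turned. Direction could not turn with the other filters, trend and robust estimation or the replicate block, which leave each difference as it was. The authors' values and the offset of 50 are nearly the same values, so these tallies count them as separate alternatives though they are not independent. With the replicate block Mlxipl kept its call (adjusted p = 0.0173) and Srebf1 lost it (adjusted p = 0.0723). The causes were not tested. Dim probes of Srebf1, Acaca and Acacb limit what can be said of those transcripts.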
